A study of Mus musculus with 36 samples.

Results

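The mES cell lines with degron-tagged METTL3 (clone 12D) and degron-tagged YTHDC1 (clone Y12H) were compared without depletion, to ask how far the clones already differed before either protein was removed. The comparison used the Ctrl libraries of both lines, 12 of the 36 libraries of the series, 6 from each clone. All 12 were chosen from their labels, and no measured value entered the choice.

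Both clones were XX mES cells of a Cast x 129S background in which a TetOn promoter replaced the endogenous Xist promoter on the 129S allele, and Xist carried a Bgl stem-loop array. One clone carried the FKBP12 F36V tag at the C terminus of METTL3 and the other at the C terminus of YTHDC1. Cells were grown on inactivated mouse fibroblast feeders in serum with LIF, and feeders were removed by preplating before the experiment. Up to the chase, the cells of every Ctrl library had doxycycline at 1 µg/ml for 24 h, with 500 µM 4sU in the last 4 h. No dTAG-13 was given. The cells were harvested 0, 90 or 180 min after 4sU was replaced by 50 mM uridine. Doxycycline was also in the chase medium by the paper's account, so Xist induction lasted longer in libraries with a longer chase. Chase time and length of induction therefore cannot be told apart. Each chase time had 2 replicates in each clone. The paper reports that wells of a biological replicate were divided from a shared batch of cells. The 3 chase libraries of a replicate are therefore not independent, nor are the pairs of libraries compared below. Xist was therefore induced in all of these cells, and no untagged parental line was part of the comparison. Each line is 1 clone, and the clone, the tagged protein and the table in which the reads were counted coincide, so they cannot be told apart.

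The mark m6A (N6-methyladenosine) is placed on RNA by a writer complex whose active enzyme is METTL3, and YTHDC1 is a nuclear protein that binds m6A. mES cells in serum and LIF move between a naive state, marked by factors such as Klf4, Tbx3 and Esrrb, and states nearer to the formative or primed epiblast, marked by Fgf5, Otx2, Pou3f1 and the de novo DNA methyltransferases. A small share of cells in such cultures also passes through a state that resembles the 2-cell embryo and expresses the Zscan4 family. Imprinted genes are expressed from the maternal or the paternal allele, and their level in mES cells can change when methylation at their control regions is lost in culture.

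The libraries held 9547507 to 17982299 reads in the METTL3 clone and 11601679 to 16129632 in the YTHDC1 clone. Levels are in CPM (counts scaled by the total reads counted in the library), which are not corrected for gene length and so are compared only between clones and never between genes. In a principal component analysis of 10769 genes, the first component (45.8% of the variance) separated the replicates but also moved with the chase. On it the 0 min libraries of replicate 1 were at -4.50 (METTL3) and -3.52 (YTHDC1), against -6.68 or lower in replicate 2. The 90 and 180 min libraries of replicate 1 were between 23.3 and 39.3. The second component (33.5%) followed the chase. The third (8.36%) placed all METTL3 Ctrl libraries between 0.365 and 16.6 and all YTHDC1 Ctrl libraries between -20.6 and -2.19. The YTHDC1 library at 0 min in replicate 1 stood furthest out on the third component. Deviations of replicate 1 from replicate 2 moved together in both clones (r of 0.553, 0.907 and 0.872 across these genes at 0, 90 and 180 min). Replicate was therefore kept as a block in the comparison.

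A total of 1159 of 13726 tested genes differed between the clones (8.44%, edgeR adjusted p under 0.05), 633 higher (4.61%) and 526 lower (3.83%) in METTL3 Ctrl. Most differences were small, with a median log2 difference of 0.50 among the higher and -0.36 among the lower genes, and only 66 genes (0.481%) differed by more than 2-fold. Of these, 64 were higher (0.466%) and 2 lower (0.0146%) in METTL3 Ctrl. Many of the 66 were low, with a median over genes of 2.58 CPM in the higher clone. In 27 of them the libraries of the clones did not overlap, and 22 lay within 500 kb of another. DESeq2 called 1290 genes (9.4%) at any fold. In 129 genes (0.94%) the 6 libraries of one clone did not overlap the 6 of the other, and 120 of these were among the 1159. Without the replicate block 72 genes (0.525%) passed the threshold, 60 higher and 12 lower, and all 72 were among the 1159. With the chase libraries of each replicate summed, 2130 of 15619 genes passed with the block and 0 without it. No gene passed the threshold of a test of whether the clone difference depended on the replicate (edgeR, 0 of 13726, with 522 at an unadjusted p under 0.05) or on the chase time (0 of 13726, with 318 at an unadjusted p under 0.05).

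The gene with the largest difference among the leading genes was Arhgap18, which encodes a GTPase-activating protein. It ranged from 11.9 to 17.96 CPM (median 15.9) in METTL3 Ctrl and from 3.35 to 5.22 CPM (median 4.47) in YTHDC1 Ctrl. The clones did not overlap, and the log2 difference was 1.79 (SE 0.13, edgeR adjusted p 1.83e-06), higher in 6 of 6 library pairs and 1.77 and 1.82 in replicates 1 and 2 alone. Arhgap18 (ENSMUSG00000039031) lies on chromosome 10 at 26753421 to 26918648 (mm10, plus strand), and the gene beside it, Lama2 (ENSMUSG00000019899, 26980036 to 27619758, minus strand), differed as well. Lama2, a laminin chain of the basement membrane, ranged from 4.01 to 6.99 CPM (median 5.91) in METTL3 Ctrl against 1.29 to 2.48 CPM (median 1.77) in YTHDC1 Ctrl, again without overlap. Its log2 difference was 1.58 (SE 0.14, edgeR adjusted p 1.09e-05). The gap between them is 61.4 kb and holds 0 other tested genes.

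Enpp2, which encodes autotaxin, a secreted enzyme that makes lysophosphatidic acid, ranged from 7.65 to 13.01 CPM (median 10.99) in METTL3 Ctrl and from 2.05 to 4.87 CPM (median 3.20) in YTHDC1 Ctrl. Its log2 difference was 1.66 (SE 0.18, edgeR adjusted p 8.51e-05) and the libraries did not overlap. Kcnj3, a subunit of an inwardly rectifying potassium channel, differed by 1.21 on the log2 scale (SE 0.15, adjusted p 0.000208). The ligand gene Fgf15 differed by 1.25 (SE 0.20, adjusted p 0.0015). Rasef, a small GTPase gene at about 2 CPM in METTL3 Ctrl, differed by 1.19 (SE 0.22, adjusted p 0.00387), which did not pass the threshold without the replicate block (adjusted p 0.137). 

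**Figure D1:**
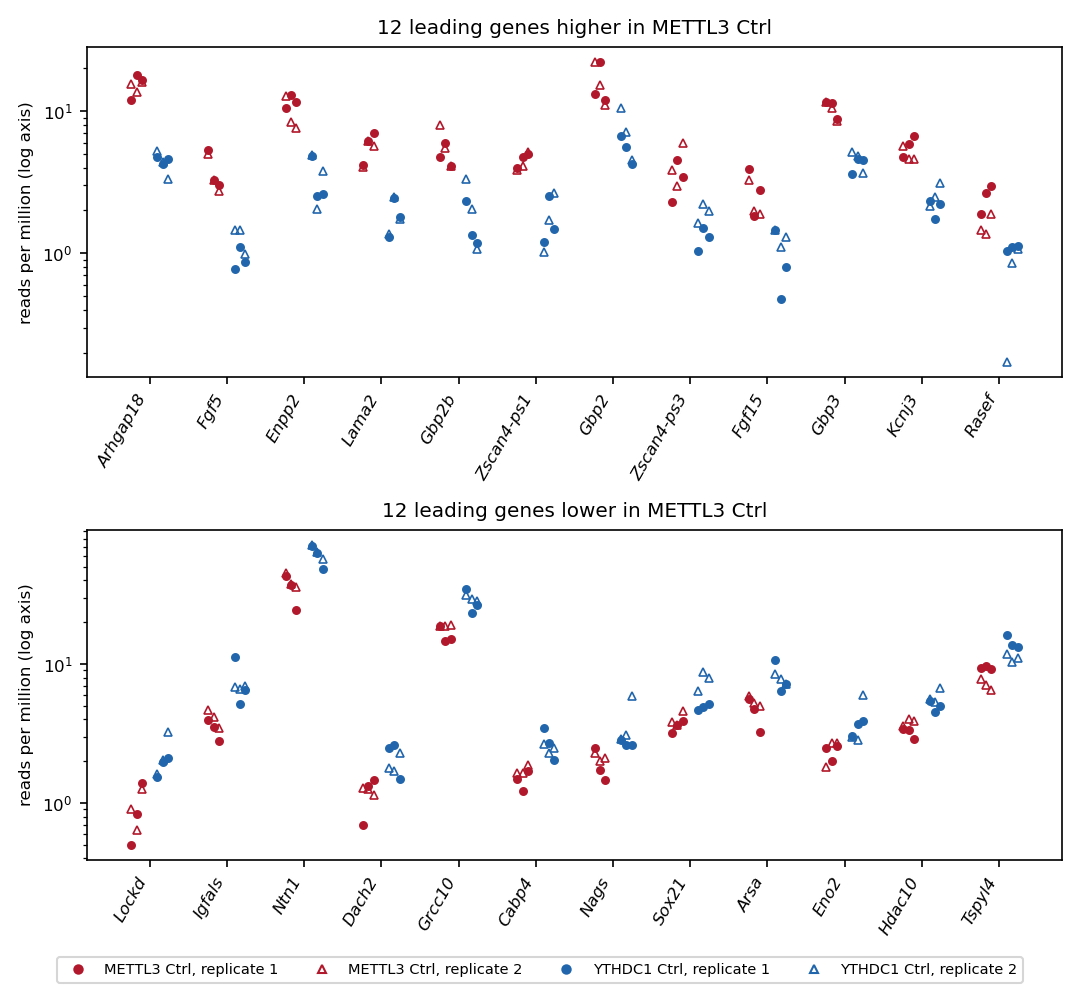
CPM of the 12 leading genes in each direction on a log axis, with 1 point per library, METTL3 Ctrl in red and YTHDC1 Ctrl in blue, replicate 1 filled and replicate 2 open, the 3 points of a replicate being 0, 90 and 180 min of chase from left to right. In each of the 24 genes the red and blue points do not overlap, as the rule for choosing them required.

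A run of guanylate-binding protein genes, which encode GTPases induced by interferons, was higher in METTL3 Ctrl. Gbp2 ranged from 10.998 to 22.2 CPM (median 14.2) in METTL3 Ctrl and from 4.28 to 10.4 CPM (median 6.17) in YTHDC1 Ctrl, a log2 difference of 1.33 (SE 0.16, edgeR adjusted p 0.000196). Gbp2b differed by 1.56 (SE 0.17, adjusted p 6.8e-05) and Gbp3 by 1.23 (SE 0.11, adjusted p 1.49e-05). The libraries of the clones did not overlap for any of these 3 genes. All genes of the family were then examined, a choice made after their values were seen. Of 6 tested, 5 passed the threshold, with Gbp7 at 0.89 and Gbp9 at 0.87, while Gbp4 at 0.44 did not (adjusted p 0.0558). Gbp7, Gbp3, Gbp2b and Gbp2 stand next to each other on chromosome 3, whereas Gbp9 and Gbp4 are on chromosome 5, where their annotated spans overlap. The members are related in sequence, and how the counting handled reads shared between them is not given in the sources used here beyond the use of unique alignments.

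The upstream sequences of the chromosome 3 genes are shown because these neighbours moved together. Each is the stretch before the RefSeq start (GRCm38.p6, plus strand), at chr3:142530086-142530335 for Gbp7, chr3:142559794-142560043 for the first of the starts listed for Gbp3, chr3:142594597-142594846 for Gbp2b and chr3:142620413-142620621 for Gbp2, the last cut short where it ran into the annotated transcript. Capitals mark each match to an interferon-stimulated response element, read as TTTC, any 2 bases and TTTC and searched on both strands, with overlapping matches merged.
Gbp7: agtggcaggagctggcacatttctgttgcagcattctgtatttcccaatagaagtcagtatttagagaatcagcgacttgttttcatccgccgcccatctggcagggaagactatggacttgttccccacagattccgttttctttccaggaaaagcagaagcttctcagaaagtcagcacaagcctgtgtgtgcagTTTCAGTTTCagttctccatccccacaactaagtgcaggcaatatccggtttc
Gbp3: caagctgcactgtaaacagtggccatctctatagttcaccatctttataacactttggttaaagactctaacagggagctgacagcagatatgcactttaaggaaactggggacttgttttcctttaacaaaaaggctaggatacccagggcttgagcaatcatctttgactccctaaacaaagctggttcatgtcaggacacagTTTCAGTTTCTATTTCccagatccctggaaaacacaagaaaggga
Gbp2b: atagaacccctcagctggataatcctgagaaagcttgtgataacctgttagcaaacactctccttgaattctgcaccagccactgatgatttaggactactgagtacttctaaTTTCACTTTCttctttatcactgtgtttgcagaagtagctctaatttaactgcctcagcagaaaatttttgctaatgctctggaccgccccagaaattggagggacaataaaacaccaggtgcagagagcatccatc
Gbp2: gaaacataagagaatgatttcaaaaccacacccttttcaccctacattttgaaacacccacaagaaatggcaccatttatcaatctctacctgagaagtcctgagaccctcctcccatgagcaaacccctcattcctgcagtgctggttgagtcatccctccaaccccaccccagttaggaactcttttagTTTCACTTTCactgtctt

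This motif occurs upstream of each of the 4 genes, and in 978 of 32851 upstream sequences of 250 bases in the same table (2.98%). The latter share counts sequences, of which a gene can have several. The upstream sequences of Gbp9 and of Gbp4, which did not pass the threshold, are not reported here. A match is a description of the sequence, and binding was not measured here.

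The genes lower in METTL3 Ctrl differed less. Lockd, a long noncoding RNA transcribed beside the cell cycle inhibitor gene Cdkn1b, ranged from 0.499 to 1.40 CPM (median 0.873) in METTL3 Ctrl and from 1.55 to 3.27 CPM (median 2.02) in YTHDC1 Ctrl. Its log2 difference was -1.15 (SE 0.20, edgeR adjusted p 0.0026), and Tmem132d, the other gene past 2-fold, was at -1.22. Cdkn1b itself was at -0.65. Ntn1, which encodes the secreted guidance cue netrin-1, ranged from 24.5 to 45.1 CPM (median 37.6) in METTL3 Ctrl and from 48.4 to 72.1 CPM (median 63.6) in YTHDC1 Ctrl, a log2 difference of -0.76 (SE 0.08, adjusted p 3.5e-05). Igfals, the acid-labile subunit of the circulating IGF complex, was at -0.94 and Grcc10 at -0.73. The other leading genes, Dach2, Cabp4, Nags, Sox21, Arsa, Eno2, Hdac10 and Tspyl4, were between -0.75 and -0.63, and 7 of these 8 did not pass the threshold without the replicate block, Arsa (adjusted p 0.048) being the exception.

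Core pluripotency genes differed in both directions and by little. Of 14 tested members, METTL3 Ctrl was higher in 2 and lower in 2 (28.6% called against 8.44% of all genes, and 0 without the replicate block), and the median log2 difference was 0.04, beside 0.0032 over all genes tested. Pou5f1, the central factor of the pluripotency network, ranged from 525 to 700 CPM (median 583) in METTL3 Ctrl and from 561 to 935 CPM (median 670) in YTHDC1 Ctrl. The ranges overlapped, and its log2 difference of -0.22 (SE 0.07) did not pass the threshold (edgeR adjusted p 0.0518). Nanog was at -0.09 (SE 0.13, adjusted p 0.727). Sox2 was lower at -0.24 (SE 0.06, adjusted p 0.0238) and lower in 6 of 6 pairs, while Lin28a at 0.23 and Dppa2 at 0.21 were higher.

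Naive pluripotency genes leaned towards the YTHDC1 clone. All 24 members passed the filter on low counts, 5 were lower and 0 higher in METTL3 Ctrl (20.8% called against 8.44% of all genes), and the median log2 difference was -0.17. The other 19 were not called, and 6 of the 24 log2 differences were above 0. Klf4, a transcription factor downstream of LIF, ranged from 58.3 to 164 CPM (median 99.5) in METTL3 Ctrl and from 74.5 to 225 CPM (median 130.4) in YTHDC1 Ctrl. The ranges overlapped, replicate 1 was below replicate 2 in both clones at each chase time, and within every pair of chase time and replicate the METTL3 library was the lower one. The log2 difference of Klf4 was -0.43 (SE 0.08, edgeR adjusted p 0.00357). The other genes past the threshold were Tbx3 at -0.38, Esrrb at -0.35, Mybl2 at -0.25 and Tdh, the threonine dehydrogenase of mES cells, at -0.22. Zfp42 (Rex1) was at -0.12 and did not pass (adjusted p 0.41). The list median was -0.03 with 0 calls when only replicate 1 was fitted, and -0.18 with 11 calls, all lower, when only replicate 2 was. None of the 5 genes passed without the replicate block, where 0 of the list were called, 11 of its 24 genes had an unadjusted p under 0.05 with the block, and DESeq2 called 6.

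Genes downstream of LIF and STAT3 gave 3 of 11 lower and 0 higher (27.3% called against 8.44% of all genes), with a median of -0.10. None of the list was called without the replicate block, and replicate 1 fitted alone gave 0 calls and a median of -0.04. Socs3, a feedback inhibitor of this pathway, ranged from 34.8 to 107 CPM (median 69.6) in METTL3 Ctrl against 53.5 to 152 CPM (median 90.5) in YTHDC1 Ctrl. It was lower in 6 of 6 pairs, with a log2 difference of -0.49 (SE 0.07, edgeR adjusted p 0.000341). Pim3, a kinase gene, was at -0.36, and the third gene was Klf4.

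Formative and primed genes leaned the other way. Of 20 tested members, 7 were higher and 0 lower in METTL3 Ctrl (35% called against 8.44% of all genes), and the median log2 difference was 0.23. Fgf5, the FGF ligand switched on as cells leave the naive state, ranged from 2.72 to 5.29 CPM (median 3.27) in METTL3 Ctrl and from 0.776 to 1.45 CPM (median 1.05) in YTHDC1 Ctrl. The clones did not overlap, and the log2 difference was 1.73 (SE 0.18, edgeR adjusted p 5.12e-05), at 2.02 and 1.49 in replicates 1 and 2 alone. Dnmt3b, a de novo DNA methyltransferase, ranged from 291 to 579 CPM (median 483) in METTL3 Ctrl and from 203 to 402 CPM (median 322) in YTHDC1 Ctrl, and it was higher in 6 of 6 pairs, with a log2 difference of 0.54 (SE 0.06, adjusted p 4.25e-05). Its level was lower at 180 min than at 0 min in both replicates of both clones, and the ranges overlap. The other genes past the threshold were Pim2 at 0.99, the Wnt effector Lef1 at 0.88, Pou3f1 at 0.72, Dnmt3a at 0.32 and Dnmt3l at 0.27. Otx2, a formative-state transcription factor, was at 0.83 in replicate 1 and -0.08 in replicate 2, and its log2 difference of 0.38 (SE 0.15) did not pass (adjusted p 0.135). Among 15 DNA methylation genes the only further call was Arid4b at 0.28. Fgf5, Pim2 and Dnmt3b also passed without the replicate block (adjusted p 0.00302, 0.0397 and 0.0162), and the other 4 did not.

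**Figure D2:**
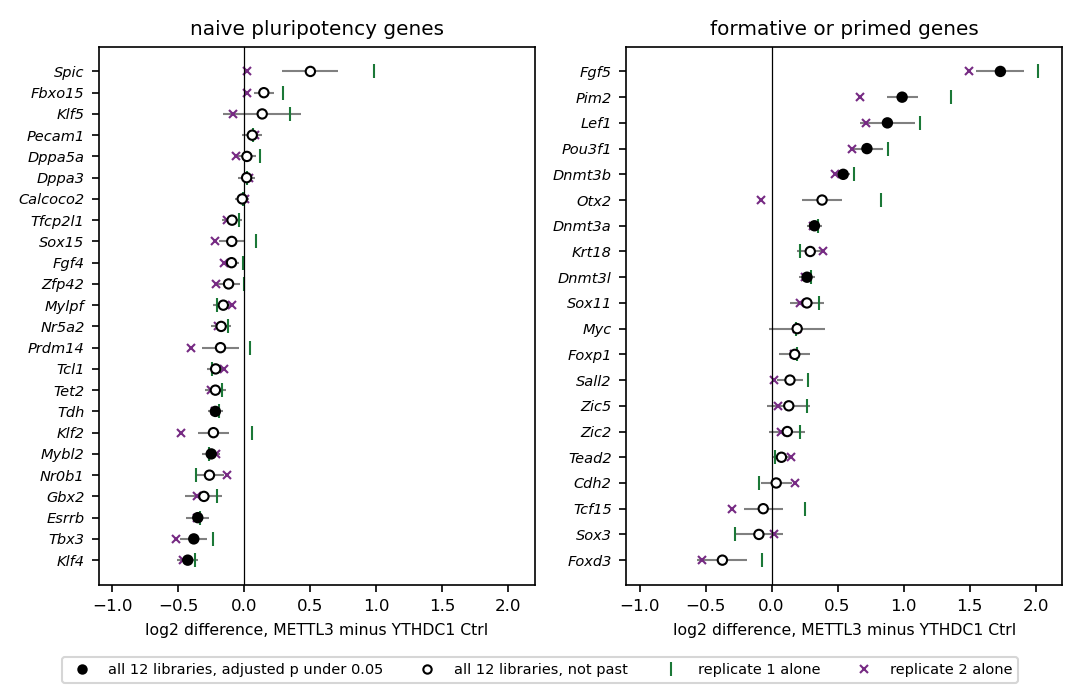
Log2 difference of METTL3 Ctrl minus YTHDC1 Ctrl for the tested naive genes (left) and formative or primed genes (right), circles from all 12 libraries with bars of 1 SE, filled where the adjusted p was under 0.05, with the values of replicate 1 alone (green bars) and replicate 2 alone (purple crosses). The 5 filled naive genes are below 0 and the 7 filled formative genes above 0, with Fgf5 furthest at 1.73.

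In bulk RNA a smaller share of cells in a state and less RNA per cell cannot be told apart. Other signalling lists gave calls in either direction. Among FGF and ERK feedback genes 2 of 14 were higher, the receptor gene Fgfr2 at 0.30 and the immediate early gene Egr1 at 0.85, and 1 was lower, Etv4 at -0.31 (21.4% called against 8.44% of all genes). Nodal pathway genes had 1 of 11 lower (Gdf3, a ligand of the family, at -0.34, with libraries that did not overlap, 9.09% called), and BMP genes had 0 of 10 past the threshold by edgeR or by DESeq2, with 1 at an unadjusted p under 0.05. None of these genes was called without the replicate block.

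No gene of the m6A machinery passed the threshold between the clones. Of all tested genes 8.44% passed, a share at which lists this short would hold few calls, so their absence does not set these lists apart. Of the 8 genes of the writer complex, 0 passed the threshold (2 at an unadjusted p under 0.05, and DESeq2 called 1, lower), of the 2 erasers 0 (0 unadjusted, 0 by DESeq2) and of the 16 readers 0 (2 unadjusted, 0 by DESeq2). The medians of the 3 lists were -0.01, -0.02 and 0.06. Mettl3 (ENSMUSG00000022160, chromosome 14, 52294841 to 52305128, mm10), tagged in one of the clones, ranged from 54.2 to 62.0 CPM (median 56.3) in METTL3 Ctrl and from 57.5 to 76.7 CPM (median 63.5) in YTHDC1 Ctrl. It was lower in 6 of 6 pairs, with a log2 difference of -0.19 (SE 0.06), and it missed the threshold narrowly (edgeR adjusted p 0.0561). Ythdc1 (ENSMUSG00000035851, chromosome 5, 86804221 to 86836659), tagged in the other clone, ranged from 212 to 316 CPM (median 237) in METTL3 Ctrl and from 143 to 312 CPM (median 252) in YTHDC1 Ctrl, with a log2 difference of 0.05 (SE 0.08, adjusted p 0.732). Mettl14, the partner of METTL3, was at 0.03 (SE 0.09) and Wtap, which holds the complex in nuclear speckles, at -0.05 (SE 0.06). The demethylase genes Alkbh5 and Fto were at -0.03 (SE 0.06) and -0.002 (SE 0.09). Among other RNA methyltransferases, 1 of 5 was lower, Pcif1, which methylates the cap-adjacent adenosine, at -0.30 (adjusted p 0.0233). These are RNA levels, and protein and m6A were not measured in these libraries.

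Imprinted genes expressed from the paternal allele were more often higher in METTL3 Ctrl than lower. Of 30 tested, 9 passed as higher and 0 as lower (30% called against 8.44% of all genes), the median being 0.11. In 36 listed genes 1 (Ins2) had no reads in any of the 12 libraries. Peg3, a zinc finger gene, ranged from 294 to 469 CPM (median 417) in METTL3 Ctrl and from 239 to 371 CPM (median 292) in YTHDC1 Ctrl. The ranges overlapped, it was higher in 6 of 6 pairs, and its log2 difference was 0.42 (SE 0.06, edgeR adjusted p 0.000699). Usp29, in the same imprinted cluster, was at 0.51 (SE 0.11, adjusted p 0.0102) and its libraries did not overlap. The others were Magel2 at 0.51, Sfmbt2 at 0.47, Fkbp6 at 0.44, Snurf at 0.39, Inpp5f at 0.35, Snrpn at 0.32 and Slc38a4 at 0.21. Snurf and Snrpn share a transcript, so their counts are not separate evidence. Magel2, Snurf and Snrpn belong to 1 cluster on chromosome 7, in which Ndn at -0.18, Peg12 at -0.15 and Mkrn3 at -0.13 did not pass. Of the 9 genes, only Sfmbt2 passed without the replicate block (adjusted p 0.0249).

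Of 26 tested imprinted genes expressed from the maternal allele, 3 were higher and 1 lower (15.4% called against 8.44% of all genes), with a median of 0.07. None of the 4 passed without the replicate block. H19, a long noncoding RNA, ranged from 155 to 323 CPM (median 241) in METTL3 Ctrl and from 128 to 205 CPM (median 169.5) in YTHDC1 Ctrl. It was higher in 6 of 6 pairs, with a log2 difference of 0.51 (SE 0.07, edgeR adjusted p 0.000247), whereas Igf2, the growth factor gene controlled by the same imprinted region, was at -0.01 (SE 0.20, adjusted p 0.986). Atp10a was at 0.44 and the cell cycle inhibitor gene Cdkn1c at 0.37, and Trappc9 was lower at -0.40. Meg3 was at 0.13 (SE 0.10) and Mest, paternally expressed, at 0.13 (SE 0.06), and neither passed. The alleles were not separated in these counts.

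Germline genes, which are held silent in somatic cells by DNA methylation and repressor complexes, were higher in METTL3 Ctrl. All 20 listed genes were tested and all 20 log2 differences were above 0, 9 of them past the threshold (45% against 8.44% of all genes), with a median of 0.41. Hormad1, a protein of meiotic chromosome axes, ranged from 25.2 to 35.6 CPM (median 29.7) in METTL3 Ctrl and from 16.3 to 22.9 CPM (median 19.16) in YTHDC1 Ctrl. Its libraries did not overlap, with a log2 difference of 0.64 (SE 0.10, edgeR adjusted p 0.0014), and it alone of the 9 passed without the replicate block (adjusted p 0.0377). Mael, a piRNA pathway gene, was at 0.67, Tdrkh at 0.58, the synaptonemal complex gene Sycp1 at 0.52, Taf7l at 0.49, Tex19.1 at 0.38, Dazl at 0.36, Ddx4 at 0.34 and Piwil2 at 0.34. Fitted by replicate, the list median was 0.54 and 0.31.

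Upstream sequences of 3 of these genes are shown because the letters CACGTG, an E-box that reads the same on both strands, recur there. Each stretch is the 120 bases before the RefSeq start (GRCm38.p6), at chr3:95559557-95559676 (plus strand) for Hormad1, chr3:102936101-102936220 (minus strand) for Sycp1 and chrX:134476491-134476610 (minus strand) for Taf7l, with the E-box in capitals.
Hormad1: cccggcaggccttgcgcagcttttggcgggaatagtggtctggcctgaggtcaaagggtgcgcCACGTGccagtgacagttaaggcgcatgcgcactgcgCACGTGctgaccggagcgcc
Sycp1: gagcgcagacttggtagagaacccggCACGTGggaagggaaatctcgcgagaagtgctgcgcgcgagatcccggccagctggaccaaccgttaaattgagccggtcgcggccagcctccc
Taf7l: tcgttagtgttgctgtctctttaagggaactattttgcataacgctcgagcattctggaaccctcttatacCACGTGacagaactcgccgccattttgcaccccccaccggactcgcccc

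Of the 9 called germline genes 8 had an upstream sequence of 250 bases in the table, and 5 of these held CACGTG, as did 8 of the 18 tested germline genes with a sequence. One of the 5 was Ddx4, where the cut described for Gbp2 removed 145 bases and left 105. The counted match of Ddx4, at -29 from the start, is not in the bases left. CACGTG occurred in 1978 of 32851 upstream sequences in all (6.02%), in 2 of 15 naive, 4 of 14 formative or primed and 0 of 7 2-cell-like genes with a sequence. The interferon-stimulated response element occurred in 1 of the 18 germline genes and in none of the naive, formative or 2-cell-like genes with a sequence. A STAT-type motif, TTCNNNGAA, was also searched and occurred in 0 of the 18 germline, 1 of the 15 naive, 2 of the 14 formative and 1 of the 7 2-cell-like genes, against 2306 of 32851 in all (7.02%). For each motif the totals out of 32851 count upstream sequences, whereas the lists count genes. A gene can have several upstream sequences, as Hormad1 does, so these shares are not in the same unit.

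Genes of the 2-cell-like state were higher in METTL3 Ctrl in nearly every case. Of 13 tested members of 20 listed, 11 passed as higher and 0 as lower (84.6% against 8.44% of all genes), the median being 0.89. Zscan4f ranged from 6.89 to 15.2 CPM (median 12.5) in METTL3 Ctrl and from 3.53 to 8.29 CPM (median 5.39) in YTHDC1 Ctrl. The ranges overlapped, it was higher in 6 of 6 pairs, and its log2 difference was 1.12 (SE 0.15, edgeR adjusted p 0.000382). Tmem92 ranged from 4.59 to 8.75 CPM (median 6.79) in METTL3 Ctrl and from 1.98 to 4.11 CPM (median 3.17) in YTHDC1 Ctrl, without overlap, and differed by 1.12 (SE 0.13, adjusted p 8.12e-05). Zscan4d, Gm12794 and Tdpoz4 also passed 2-fold, as did the family members Zscan4-ps1 (1.34) and Zscan4-ps3 (1.27) outside the list, and Eif1a at 0.09 and Arg2 at 0.40 did not pass the threshold. Fitted by replicate, the list median was 1.19 and 0.58. In all, 3 of the 11 genes (Zscan4f, Tmem92 and Gm12794) passed without the replicate block. Zscan4, Usp17l and Tdpoz genes are families of near-identical copies, so the split of reads among their members is uncertain.

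The ZCCHC8 Ctrl libraries, from another clone of the same background, were set beside these values as a description, with no test. Arhgap18 averaged 15.3 CPM in METTL3 Ctrl, 4.42 CPM in YTHDC1 Ctrl and 4.05 CPM in ZCCHC8 Ctrl, and Fgf5 averaged 3.77, 1.11 and 0.839 CPM. Gbp2 averaged 15.9, 6.45 and 4.39 CPM. Zscan4f, in contrast, averaged 11.7 CPM in METTL3 Ctrl, 5.50 CPM in YTHDC1 Ctrl and 16.4 CPM in ZCCHC8 Ctrl, and Klf4 averaged 106, 145 and 182 CPM. Among the 66 genes past 2-fold, the ZCCHC8 mean was nearer on the log scale to the YTHDC1 mean in 40.

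The called share of lineage lists ranged from 0 to 40%, against 8.44% of all genes, and none of their genes was called without the replicate block. Among neural ectoderm genes 1 of 10 was higher, Nes at 0.36, and 3 were lower, Sox21 at -0.70, Ncam1 at -0.56 and Tubb3 at -0.33 (40% called). Sox21, a transcription factor of neural progenitors, ranged from 3.19 to 4.61 CPM in METTL3 Ctrl and from 4.65 to 8.80 CPM in YTHDC1 Ctrl. Among mesoderm and primitive streak genes 0 of 9 passed the threshold by edgeR or DESeq2, with 1 at an unadjusted p under 0.05, and Brachyury (T) was at 0.47 (SE 0.17, adjusted p 0.0895). Endoderm genes had 1 of 14 higher, the receptor gene Pdgfra at 0.61, and 3 lower, Lama1 at -0.52, Apoe at -0.34 and Col4a1 at -0.32 (28.6% called). Lama1, a laminin chain that mES cells also express, ranged from 119 to 289 CPM (median 192) in METTL3 Ctrl against 199 to 371 CPM (median 277) in YTHDC1 Ctrl. Trophectoderm genes had 2 of 11 higher, Sbsn at 0.65 and Krt7 at 0.46 (18.2% called).

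**Figure D3:**
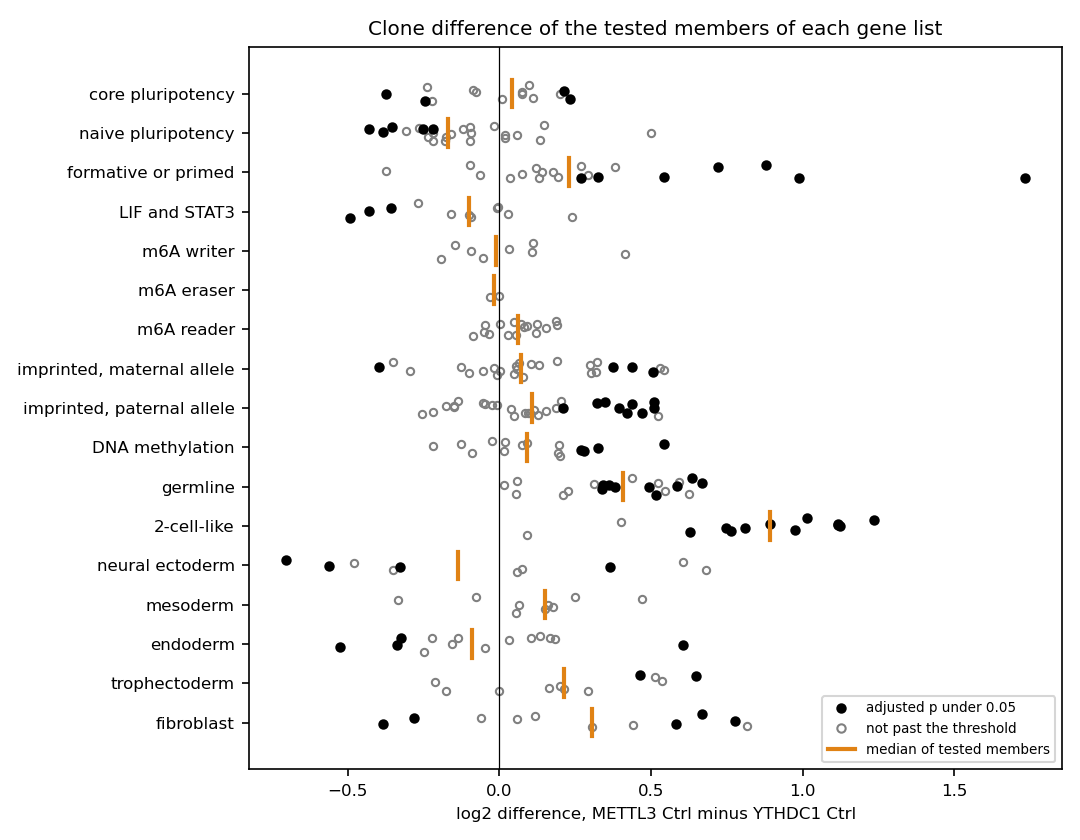
Log2 difference of METTL3 Ctrl minus YTHDC1 Ctrl for each tested member of 17 gene lists, filled where the adjusted p was under 0.05, with the median of each list as an orange line. The 2-cell-like list has the highest median (0.89), germline genes all lie above 0, and no m6A writer, eraser or reader is filled. Of all tested genes 8.44% passed.

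Markers of fibroblasts, the feeder cell type, were examined because carried-over feeders would add their RNA. Of 22 listed markers 11 were tested, and 3 were higher (Col6a3 at 0.78, Thy1 at 0.67, Tagln at 0.58) and 2 lower (Vim at -0.38, Fbn1 at -0.28), with a median of 0.31 and 8 of 11 above 0 (45.5% called against 8.44% of all genes, and 0 without the replicate block). The summed level of the list was 453 to 1105 CPM in METTL3 Ctrl and 555 to 1179 CPM in YTHDC1 Ctrl. The other 11 markers were too low to test, with at most 15 reads in any library. Summed over 6 libraries, 6 of them had more reads in the METTL3 clone, 4 more in the YTHDC1 clone and 1 the same number. The largest counts were 47 against 28 for Tnc, 35 against 17 for Dcn and 35 against 33 for Acta2, and Col3a1 was at 12 against 9, Postn at 7 against 9 and Lum at 0 against 4. The part of feeder RNA in the differences of the other lists was not tested.

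X-linked genes were slightly higher in METTL3 Ctrl. Of 496 tested genes other than Xist, 65 were higher (13.1% against 4.61% of all genes) and 11 lower (2.22% against 3.83%). Their median log2 difference was 0.095 above that of autosomal genes. Single autosomes had medians from -0.053 to 0.053. The shift was uneven along the X chromosome, in windows of 10 Mb with at least 20 tested genes. Medians were 0.164, 0.217 and 0.197 at 130 to 140, 150 to 160 and 160 to 170 Mb. The median was -0.0889 at 0 to 10 Mb, and at 70 to 80 Mb it was 0.0268, with 5 genes higher and 5 lower. The X-linked excess over autosomes was 0.129, 0.117 and 0.155 in the 0, 90 and 180 min pairs of replicate 1 and 0.0643, 0.06 and 0.0751 in those of replicate 2, above 0 in 6 of 6 pairs. Xist (ENSMUSG00000086503, X chromosome, 103460366 to 103483254, mm10), the noncoding RNA induced here by doxycycline, ranged from 465 to 1374 CPM (median 808) in METTL3 Ctrl and from 277 to 936 CPM (median 770) in YTHDC1 Ctrl. Its log2 difference of 0.37 (SE 0.12) did not pass the threshold (edgeR adjusted p 0.0891), and it was higher in 5 of 6 pairs. Rlim, an X-linked activator of Xist, was higher at 0.40 (SE 0.07, adjusted p 0.00211), and Tsx, also near Xist, was higher at 0.63. The part of Xist and its activators in the X-linked difference was not tested.

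**Figure D4:**
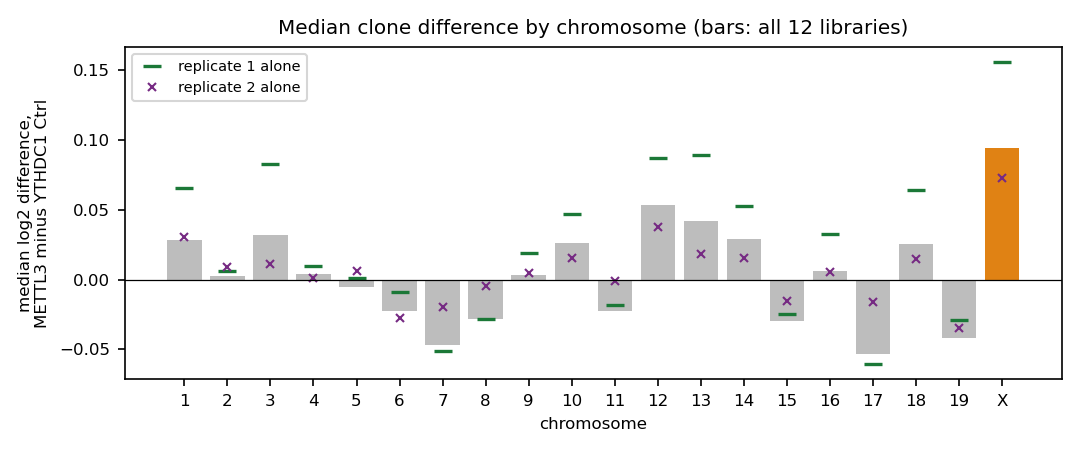
Median log2 difference of METTL3 Ctrl minus YTHDC1 Ctrl over the tested genes of each chromosome, bars from all 12 libraries, green lines from replicate 1 alone and purple crosses from replicate 2 alone. The X chromosome (orange, without Xist) has the highest median, and the bars of the autosomes stay between -0.053 and 0.053.

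Some differences also lay close together on autosomes. In windows of 10 Mb with at least 20 tested genes, the window from 120 to 130 Mb of chromosome 6 had 23 of 88 genes lower in METTL3 Ctrl (26.1%, against 3.83% of all genes), with a median of -0.18 (-0.21 and -0.16 in replicates 1 and 2 alone). It holds Grcc10, Eno2, Gdf3 and the glucose transporter gene Slc2a3 (-0.61, SE 0.07, edgeR adjusted p 0.000102). Nanog, in the same window, was at -0.09, and Cdkn1b and Lockd lie beyond it at 134920401 and 134929092. The window from 140 to 150 Mb of chromosome 3, with the Gbp genes, had 9 of 33 genes higher (27.3% against 4.61% of all genes), the highest share of the 216 windows. The window from 20 to 30 Mb of chromosome 13 had the lowest median, at -0.34, and contains the replication-dependent histone genes of the Hist1 cluster. Of these genes 6 of 51 were lower (against 3.83% of all genes) and 0 higher. DNA copy number was not measured here.

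Newly made RNA at the end of the pulse was also described for these genes. It was taken as CPM multiplied by the new-to-total ratio at 0 min, with 1 value for each replicate and clone and no test. The newly made Arhgap18 RNA was 5.45 and 9.13 CPM in replicates 1 and 2 of METTL3 Ctrl and 1.20 and 1.69 CPM in YTHDC1 Ctrl. For Fgf5 the values were 4.49 and 4.73 CPM against 0.552 and 1.40 CPM, and for Gbp2 3.52 and 5.30 CPM against 0.798 and 2.03 CPM. In 61 of the 64 genes past 2-fold that had a value in all of these libraries, new RNA differed in the same direction as total RNA in both replicates. The reads are those of the Ctrl fit, so this is not an independent set of samples. The genes were chosen by their difference in these reads, so the agreement in direction was largely set beforehand. The share over all tested genes was not computed.

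The dTAG libraries of the same clones are separate samples, but in them METTL3 or YTHDC1 was depleted, so clone and depletion cannot be told apart. By the paper's account, the wells of a replicate were divided among the conditions from a shared batch of cells. A batch difference between the clones would therefore recur in the dTAG libraries, and they are not an independent check of the Ctrl differences. There 7821 of 13857 genes (56.4%) differed between the clones. Of the 1143 Ctrl differences tested in both, 863 had the same sign in the dTAG libraries (75.5%, against 60.6% of all 13546 genes tested in both), and 601 passed the threshold in the same direction, which is 51.9% of the Ctrl calls and 7.84% of the dTAG calls among these genes. A further 128 passed in the opposite direction. Of the 58 genes past 2-fold that were tested there, 56 kept their sign and 46 passed. Arhgap18 was at 1.87, Fgf5 at 2.43 and Gbp2 at 0.73 in the dTAG libraries. Klf4 (0.15) and Tbx3 (0.28) had the opposite sign to their Ctrl difference, as did Hormad1 (-0.41) and Dnmt3l (-0.25), whereas Dnmt3b was at 0.10.

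Genes of stress and metabolism were examined as further signs of culture state, and none of them was called without the replicate block. In the integrated stress response list 2 of 13 were lower, Asns at -0.37 and Trib3 at -0.30, and 1 log2 difference was above 0 (15.4% called against 8.44% of all genes). Of the p53 targets 1 of 16 was higher (Pmaip1, 0.24) and 1 lower (Phlda3, -0.28), or 12.5%. Glycolysis and hypoxia genes had 3 of 18 lower, Slc2a3, Aldoc (-0.30) and Pfkl (-0.24), with a median of -0.11 (16.7% called).

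Several counts rested on single sets of libraries. Without the YTHDC1 libraries of replicate 1, 5 genes passed the threshold instead of 1159, and none of the 26 gene lists with tested members had a call. With replicate 2 alone the number was 1844 and with replicate 1 alone 82.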

How the data were processed

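The deposited tables hold raw read counts per gene, which the authors made with GRAND-SLAM after removing ribosomal RNA reads and aligning the rest to mm10 with STAR 2.5.2b (end-to-end, uniquely placed reads only, mismatches limited). The GRAND-SLAM version and the use of strand are not given in the sources used here. The deposited new-to-total ratio is a fraction, the share of reads assigned to new RNA (MAP estimate). The deposited conversion and coverage signal sums served only to describe labelling. A further 288 columns were not used.

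Counts of the 12 Ctrl libraries were fitted with edgeR 4.0.16 (filterByExpr, TMM with factors from 0.922 to 1.07, robust quasi-likelihood F test) with replicate, chase time and clone as terms and Benjamini-Hochberg adjustment over all tested genes (threshold 0.05). A positive log2 difference is higher in METTL3 Ctrl. The replicate numbers pair the samples because deviations correlated at more than 0.1 at every chase time. The labels do not say whether libraries came from separate cultures, and the paper reports a shared batch of cells for the wells of a replicate. The fit counted the 12 libraries as separate, with replicate as a block, although each clone has 2 replicates. P-values therefore measure only the spread between these libraries, which may be technical. Replicate libraries were not copies of each other (chi-square divided by its degrees of freedom, 20.3 to 77.9).

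Leading genes were the 12 with the largest difference in each direction among genes past the threshold, with a mean of at least 2 CPM in the higher clone, no overlap between the clones and no Gm number name. Named list members were those past the threshold and 2-fold, or else the 3 with the largest differences, with Mettl3, Ythdc1, Xist and a fixed set of regulators. Other members named in the text passed the threshold or were chosen after their values were seen, and some genes that the rule names are not reported here. The members and lists were chosen with earlier results of these data known. Positions are from GENCODE M21 and upstream sequences from RefSeq (GRCm38.p6). Simulated counts had the gene means, library sizes and spread of these libraries but no replicate or chase effect, and each library was drawn independently. In them, 65.5% of 200 genes changed by 0.5 and 95% of 200 changed by 1 on the log2 scale were recovered. The fits held 13654 and 13639 genes, with 9 and 18 false calls. Recovery and false calls with replicate effects and shared batches were not simulated. Alternatives were a fit without the block, other size factors, DESeq2 1.42.0, no filter, genes not listed in a table set to 0, summed chase libraries and left-out libraries. Software was R 4.3.3 and Python 3.11.15 (pandas 2.3.3, numpy 2.4.6, matplotlib 3.10.9).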

Additional observations from a re-analysis of the deposited data

Results flagged for a closer look

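Single libraries stood apart within their clone for 10 of the 222 sets of 6 libraries examined for the named genes, by the gap to the nearest library relative to the whole range. Chance gives such a gap in about 1 of 20 sets. In YTHDC1 Ctrl the 180 min library of replicate 2 was the high one for Lockd (3.27 CPM), Nags (5.86 CPM), Eno2 (6.01 CPM) and Spic (6.92 CPM). The YTHDC1 library at 0 min of replicate 1 was high for Igfals (11.2 CPM) and Zfp42 (625.1 CPM) and low for Pdgfra (1.98 CPM). At 0 min of replicate 2 the YTHDC1 library was low for Rasef (0.171 CPM) and high for Nefm (5.30 CPM). In METTL3 Ctrl the 90 min library of replicate 2 was high for Col6a3 (2.81 CPM).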

How the results depend on the processing

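The count of 1159 genes in the Ctrl libraries was within 1.5 times of its value with RLE size factors, DESeq2, no filter on low counts, unlisted genes as 0, a block for every pair of chase time and replicate (chosen after seeing the data) and without the 0 min libraries. It was 72 with no replicate block, 2130 with chase libraries summed and a replicate block, 0 with them summed and no replicate block (331 at an unadjusted p under 0.05), 304 without the 90 min and 111 without the 180 min libraries, 767 without the YTHDC1 0 min library of replicate 1 (also chosen after seeing the data), and 5 to 1844 when a replicate was left out of one or both clones. The lowest of these was without YTHDC1 replicate 1, and the others were 142 and 282 without METTL3 replicate 1 and 2, 290 without YTHDC1 replicate 2, 1844 without replicate 1 and 82 without replicate 2 of both clones. The count of 66 genes past 2-fold was 30 with no replicate block, 114 without the filter, 163 and 0 with chase libraries summed with and without the block, 36 without the 180 min libraries and 3 to 87 when a replicate was left out, 3 without YTHDC1 replicate 1 and 17 without METTL3 replicate 1. The dTAG count of 7821 was 4059 with no replicate block, 3523 with chase libraries summed and the block and 0 without it. The tests of dependence on replicate and on chase time gave 0 genes also with RLE size factors and without the filter. With RLE size factors the split of the Ctrl calls was 621 higher and 634 lower, and with DESeq2 574 and 716, against 633 and 526. The X-linked excess was 0.0945 with RLE size factors and 0.118 without the filter. None of the named genes past the threshold, of 113 named genes in all, turned its direction under the 18 alternatives, and 44 lost their call without the replicate block, 63 without YTHDC1 replicate 1. The causes of these differences were not tested. Differences of 0.5 on the log2 scale were recovered incompletely in simulated counts, which had 6 independent libraries for each clone and no replicate effect.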
